A study of Rattus norvegicus with 10 samples.

Results

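The genes of the rat major histocompatibility complex (MHC), named RT1 in the rat, were examined with the genes that load and deliver their peptides. Members were every gene symbol that begins with RT1- together with B2m, Tap1, Tap2, Tapbp, Cd74, Ciita and Nlrc5. This gave 54 of the 17168 symbols of the count table, of which 38 were class I RT1 symbols, 10 were class II RT1 symbols and 6 were accessory genes. Nlrc5 matched no symbol and was not analysed here. The bulk RNA came from left hippocampi of 10 female TgF344-AD rats, all perfused and killed at 11 months of age. TgF344-AD rats are Fischer 344 rats that carry human Alzheimer's disease transgenes under a mouse prion promoter, and both groups carried them. The 5 untreated rats ate ordinary chow, and the 5 RG2833 rats ate chow with 750 mg of RG2833 per kg from 5 months of age for 6 months. RG2833 inhibits the histone deacetylases HDAC1 and HDAC3, and a blue food dye told the chows apart. No animals without the transgenes were included, so the comparison is of RG2833 chow with ordinary chow in transgenic females.

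MHC class I molecules pair with beta-2-microglobulin and display peptides from inside the cell to CD8 T cells. The peptides are cut by proteasomes, pumped into the endoplasmic reticulum by the Tap1 and Tap2 transporter and loaded with the help of tapasin. MHC class II molecules display peptides from engulfed material to CD4 T cells. They are assembled on the invariant chain Cd74, and their transcription needs the transactivator Ciita. In the brain, class II is found mainly on macrophages at the borders, in the choroid plexus and on some microglia, and neurons carry little of it.

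No member passed edgeR's test between RG2833 and untreated rats. The log2 fold changes (RG2833 over untreated, so that a value below 0 is a lower level under RG2833) were furthest below 0 for the class II RT1-B and RT1-D chains and the invariant chain, and lay close to 0 for the peptide transporter genes. The high values of these chains came from 2 of the 5 untreated animals, and the other 3 lay within the range of the RG2833 group. The analysis describes bulk tissue, in which fewer cells of a type and less RNA per cell cannot be told apart.

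Library totals ran from 8764266 to 11311673 expected counts. The 7 markers of hippocampal neurons were all tested and summed to 2408 to 4214 CPM in untreated and 4170 to 4827 CPM under RG2833 (CPM, counts brought to a common library size with edgeR's TMM factors). Of these markers 2, Camk2a and Rbfox3, were called higher under RG2833 by edgeR, where 5.08% of all tested genes were called in either direction. Untreated replicate 1 stood apart by choroid plexus markers, which summed to 2508 CPM there and to between 4.67 and 46.0 CPM in the other 9 animals, and it also had the highest sum of oligodendrocyte markers. Ribosomal RNA loci took 2.70 to 5.36% of the counts in untreated and 1.13 to 1.96% in RG2833 animals, without overlap.

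Of the 54 members, 49 had a count in at least 1 animal and 37 in all 10. RT1-CE1, RT1-M1-5, RT1-M2, RT1-N2 and RT1-Ha were at 0 in every animal, where 3 counts would correspond to 0.268 to 0.343 CPM. The filter on low counts kept 35 members for testing, of which 24 were class I, 6 class II and 5 accessory. Of the class I symbols 14 were not tested, and none of them held more than 81 counts over all animals. The untested class II symbols were RT1-DOb with 53 counts in all, RT1-DOa with 10, RT1-Db2 with 9 and RT1-Ha with 0. Ciita, the class II transactivator, held 9, 12, 6, 2 and 2 counts in untreated replicates 1 to 5 and 6, 3, 2, 3 and 2 counts in RG2833 replicates 1 to 5, too few to test. Members that passed the filter are therefore the more abundant part of the family and do not stand for all of it.

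With edgeR's quasi-likelihood test over the whole table, 0 of the 35 tested members were called at an adjusted p under 0.05, where 5.08% of all 11791 tested genes were called. At an unadjusted p under 0.05 the count was 8 of 35 (22.9%), against 24.5% of all genes. All 8 had log2 fold changes below 0, a direction that 12.7% of all genes took at that level. They were the class I symbols RT1-T24-4, RT1-A1 and RT1-CE14, the class II genes RT1-Da, RT1-Db1, RT1-Ba and RT1-DMb, and Cd74. Without untreated replicate 1 the count was 1 of 35, RT1-T24-4, against 21.6% of all genes. Without any other single animal it lay between 4 (without RG2833 replicate 2 or 3) and 11 (without untreated replicate 4 or 5), and it was 5 without untreated replicate 2 or RG2833 replicate 5. Of all genes 21.1 and 20.2% passed in the fits with 4 members, and 29.4 and 27.7% in those with 11. No member had groups that did not overlap, which 7.27% of all genes had. The log2 fold change was below 0 for 24 of 35 members and for 50.6% of all genes. Its median was -0.08 over the 24 class I symbols, -0.93 over the 6 class II genes, -0.10 over the 5 accessory genes and 0.00 over all genes, the last rounded from a value just below 0. Without untreated replicate 1 the medians were 0.00263 for class I, -0.29 for class II and -0.04 for accessory genes. Without untreated replicate 5 they were -0.16, -1.11 and -0.19 in the same order. The class I median was -0.14 without RG2833 replicate 3 and -0.15 without RG2833 replicate 4. It was -0.04 without RG2833 replicate 1, and the accessory median ran from -0.02 (without untreated replicate 2) to -0.19 over all 10 such fits. The DESeq2 Wald test called 1 member, RT1-T24-4, and 10.9% of all genes. Untreated replicate 1 held the highest value of 20 of the 35 members, and an untreated animal held it for 26. The matching shares over all genes were not counted, and untreated replicate 1 also stood apart by choroid plexus and oligodendrocyte markers.

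**Figure D1:**
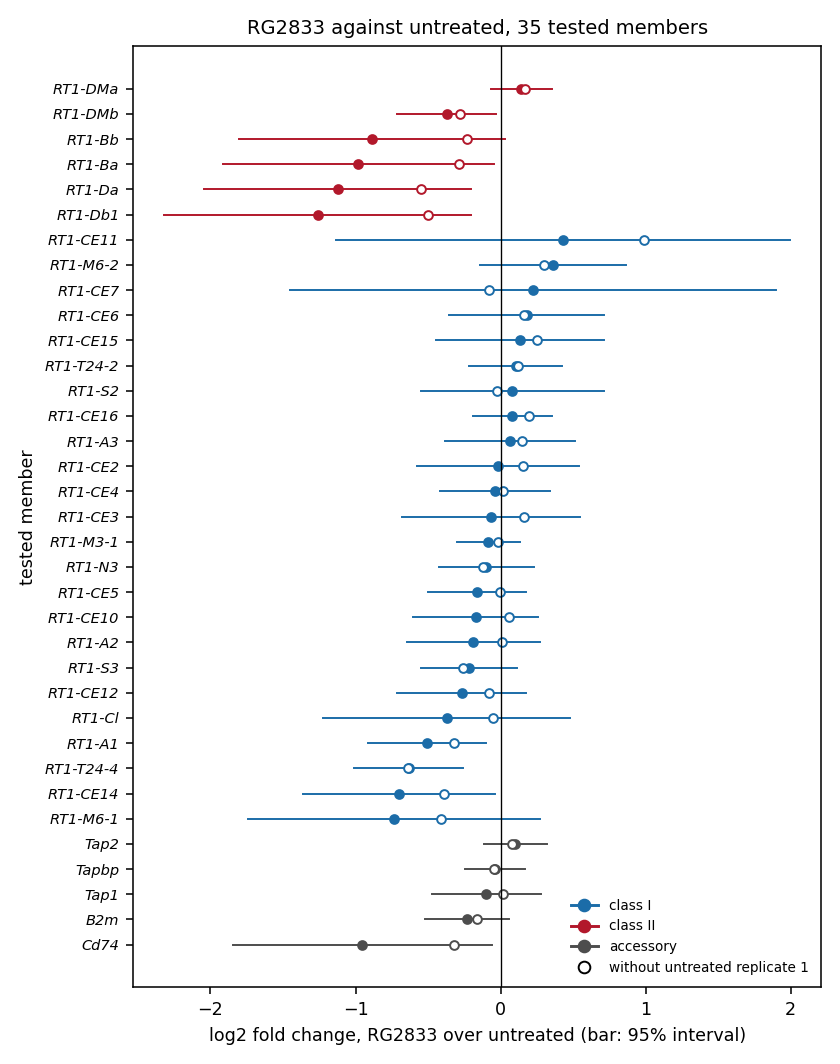
Log2 fold change of each of the 35 tested members (horizontal axis, RG2833 over untreated, with its 95% interval as a bar) grouped as class II, class I and accessory genes, from edgeR's quasi-likelihood fit with 5 animals per group. Open circles give the value without untreated replicate 1. For the 4 RT1-B and RT1-D chains and Cd74 the open circles lie between -0.55 and -0.23, against -1.26 to -0.88 with all animals.

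The classical class II molecules of the rat are RT1-B and RT1-D, each made of an alpha and a beta chain (RT1-Ba with RT1-Bb, RT1-Da with RT1-Db1). RT1-Da was measured at 62.6, 32.1, 12.5, 15.7 and 11.5 CPM in untreated replicates 1 to 5 and at 14.1, 12.4, 8.89, 16.0 and 9.83 CPM in RG2833 replicates 1 to 5. Untreated replicates 1 and 2 lay above every RG2833 animal, while replicates 3, 4 and 5 lay inside the RG2833 range. The log2 fold change of RT1-Da was -1.12 ± 0.42 (SE; 95% interval -2.04 to -0.20; adjusted p = 0.128 by edgeR), and without untreated replicate 1 it was -0.55 (adjusted p = 0.297 by edgeR).

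RT1-Ba was measured at 57.4, 20.2, 11.3, 13.7 and 10.3 CPM in untreated animals and at 14.7, 9.99, 8.17, 14.0 and 9.83 CPM under RG2833. The pattern over animals was that of RT1-Da, with untreated replicates 1 and 2 above the RG2833 group and the other 3 inside its range. Its log2 fold change was -0.98 ± 0.43 (SE; 95% interval -1.92 to -0.05; adjusted p = 0.183 by edgeR), and -0.29 without untreated replicate 1 (adjusted p = 0.484 by edgeR). The beta chains were likewise highest in untreated replicates 1 and 2. RT1-Db1 ran from 5.18 to 40.8 CPM (median 8.28) in untreated and from 4.81 to 8.48 CPM (median 6.15) in RG2833 animals, with a log2 fold change of -1.26 ± 0.49 (SE; adjusted p = 0.136 by edgeR) that was -0.50 without untreated replicate 1. RT1-Bb ran from 7.93 to 42.2 CPM (median 10.2) in untreated and from 7.23 to 12.6 CPM (median 9.06) in RG2833 animals, with a log2 fold change of -0.88 ± 0.42 (SE; adjusted p = 0.221 by edgeR) that was -0.23 without that animal. For both beta chains, too, untreated replicates 1 and 2 were the only untreated values above the RG2833 range.

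**Figure D2:**
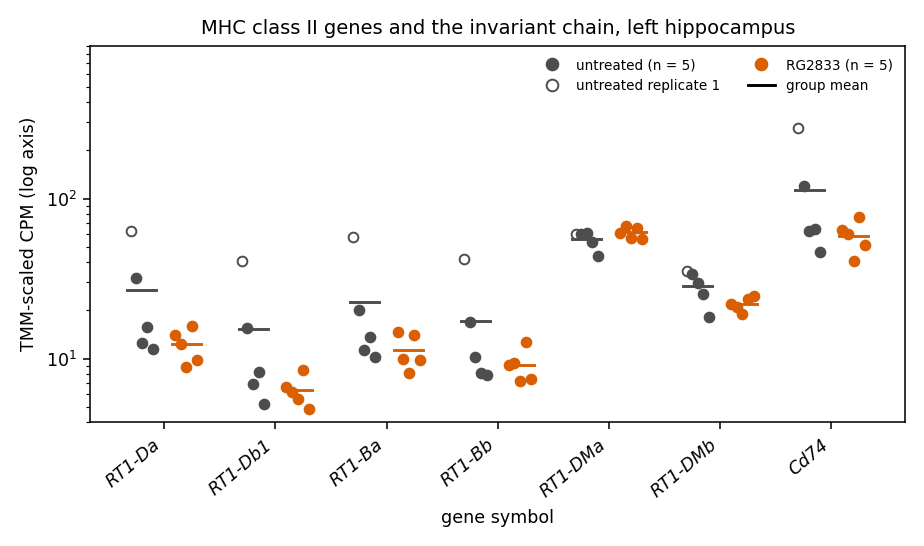
TMM-scaled CPM (vertical log axis) of the 6 tested class II genes and of the invariant chain Cd74 in each animal, untreated in grey and RG2833 in orange with n = 5 each, and horizontal lines at the group means. For RT1-Da, RT1-Db1, RT1-Ba, RT1-Bb and Cd74 the open circle of untreated replicate 1 lies above the other 9 animals, and for RT1-DMb it is also the highest value, close to untreated replicate 2, whereas for RT1-DMa it lies within the others.

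Cd74, the invariant chain that occupies the peptide groove of new class II molecules, followed the same animals. It was measured at 276, 119.9, 62.8, 64.2 and 46.5 CPM in untreated replicates 1 to 5 and at 64.0, 60.5, 40.9, 76.6 and 51.6 CPM in RG2833 replicates 1 to 5. Untreated replicates 1 and 2 again lay above every RG2833 animal and the other 3 lay within the RG2833 range. Cd74 had a log2 fold change of -0.95 ± 0.41 (SE; 95% interval -1.85 to -0.06; adjusted p = 0.179 by edgeR), and -0.32 without untreated replicate 1 (adjusted p = 0.479 by edgeR).

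RT1-DM exchanges the invariant chain remnant for peptide, and RT1-DO restrains it. In the DM genes untreated replicates 1 and 2 did not stand apart from the other untreated animals as they did in the B and D chains. RT1-DMa was measured at 59.8, 60.5, 60.8, 53.3 and 43.9 CPM in untreated and at 61.1, 67.9, 56.5, 65.8 and 56.1 CPM under RG2833, with a log2 fold change of 0.14 ± 0.10 (SE; 95% interval -0.07 to 0.36; adjusted p = 0.388 by edgeR) that was 0.07 without untreated replicate 5. RT1-DMb, its partner chain, was measured at 35.3, 34.0, 29.6, 25.3 and 18.2 CPM in untreated and at 21.9, 21.0, 19.0, 23.7 and 24.5 CPM under RG2833. Untreated replicates 1 to 4 lay above the RG2833 range and replicate 5 lay below it. The log2 fold change of RT1-DMb was -0.37 ± 0.16 (SE; adjusted p = 0.171 by edgeR), and leaving out untreated replicate 5 made it -0.49 and brought it past the threshold (adjusted p = 0.0286 by edgeR). In a fit that held the ribosomal RNA share as a covariate, RT1-DMb was at -0.10 and RT1-DMa at 0.43. RT1-Ba was at -1.46, RT1-Bb at -1.21 and Cd74 at -1.17 in that fit, lower than in the main fit. The share did not overlap between the groups, so the fit cannot separate it from RG2833. Both RT1-DO genes were below the filter.

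Summed over all class II symbols, the level was 167 ± 80.3 CPM (SD, n = 5) in untreated and 123 ± 13.8 CPM (SD, n = 5) under RG2833, a log2 ratio of means of -0.44 that was -0.12 without untreated replicate 1. The B and D chains alone gave 203, 84.6, 41.0, 45.8 and 35.1 CPM in untreated and 44.5, 38.3, 29.97, 51.1 and 31.9 CPM under RG2833. Their log2 ratio was -1.07, and -0.40 without untreated replicate 1. The RT1-DM pair summed to 84.2 ± 14.0 CPM in untreated and 83.5 ± 5.84 CPM under RG2833 (SD, n = 5), a log2 ratio of -0.01 that was 0.04 without untreated replicate 1 and -0.10 without untreated replicate 5. The difference in summed class II was thus carried by the B and D chains.

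The summed markers of several other cell types also differed between animals. The sum of the 7 choroid plexus markers was highest in untreated replicate 1, at 2508 CPM (Ttr alone 2381 CPM), but it was 12.3 CPM in untreated replicate 2, the other animal with high class II. The untreated range of that list was 5.47 to 2508 CPM and the RG2833 range 4.67 to 46.0 CPM, and only Ttr and Clic6 passed the filter. The 12 microglial markers, all tested, summed to 921, 960, 768, 682 and 593 CPM in untreated and to 595, 680, 620, 744 and 731 CPM under RG2833. Their log2 fold change was below 0 for 11 of 12 (median -0.25), and Aif1, which encodes the calcium-binding protein Iba1, fell by 0.74 on the log2 scale (adjusted p = 0.0496 by edgeR). The markers of border macrophages and monocytes summed to 57.2 to 86.8 CPM in untreated and 46.9 to 60.3 CPM under RG2833, with 6 of 7 markers in the table and 3 tested, all below 0. The dendritic cell list (5 of 6 in the table, 3 tested) summed to 11.7 to 17.1 CPM in untreated and 9.99 to 14.7 CPM under RG2833. The T cell list (7 of 7 in the table, 2 tested) summed to 2.43 to 16.0 CPM and 4.81 to 17.2 CPM in the same order. Its highest sums were mostly Cd3e, at 13.3 CPM in untreated replicate 4 and 13.6 CPM in RG2833 replicate 3. The 7 endothelial markers, all tested and all below 0 (median -0.30), summed to 246 to 368 CPM and 226 to 258 CPM, and were at 253 CPM in untreated replicate 1. The 6 meningeal markers, all tested and 2 below 0 (Dcn -1.26 and Lum -1.37), summed to 30.1 to 73.1 CPM and 25.2 to 43.4 CPM, with 48.0 CPM in untreated replicate 1. The 6 oligodendrocyte markers, all tested and none below 0, summed to 17658 CPM in untreated replicate 1, to 5679 to 12528 CPM in untreated replicates 2 to 5 and to 9002 to 12182 CPM under RG2833. The 6 astrocyte markers, all tested and 2 below 0, summed to 3232 to 5046 CPM and 3579 to 4875 CPM, with 3627 CPM in untreated replicate 1. B cell markers, 4 of 5 in the table, reached at most 0.212 CPM, with Cd79b and Ms4a1 at 0 in every animal. The part of these cell types in the class II values was not tested.

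**Figure D3:**
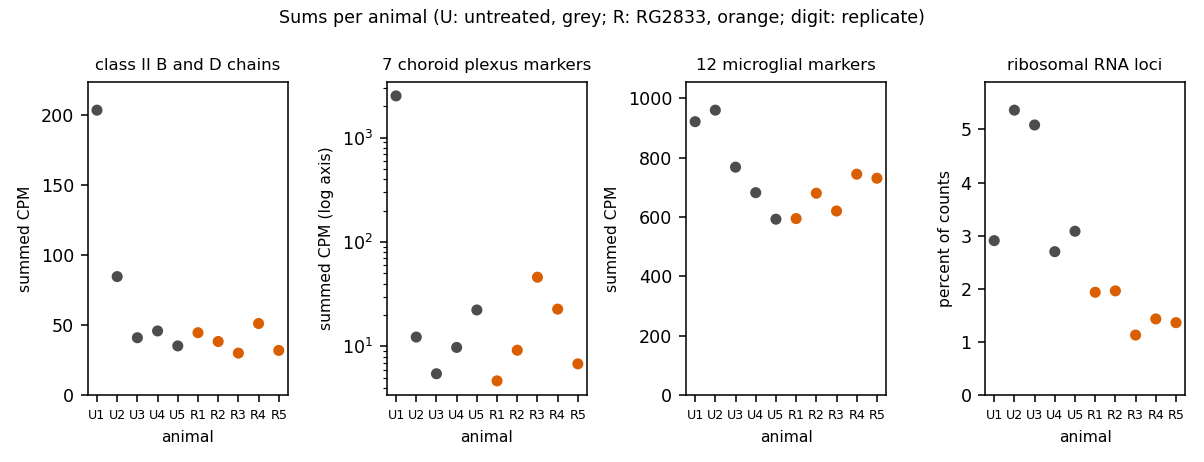
Summed level per animal of the class II B and D chains, of 7 choroid plexus markers (log axis) and of 12 microglial markers, in CPM, and the percent of counts at ribosomal RNA loci; U1 to U5 are the untreated and R1 to R5 the RG2833 replicates. The B and D chains reach 203 CPM in U1 and 84.6 CPM in U2, choroid plexus markers are high in U1 alone, and microglial markers are highest in U2 and U1.

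The promoters of the class II genes are printed here because their B and D chains varied together over the animals. Class II promoters are known for an X box bound by the RFX complex and a Y box bound by NF-Y, on which Ciita is recruited. The windows below come from RefSeq (rat build GRCr8, Brown Norway reference), run 5′ to 3′ on the gene's strand and have the cores of the X box (ACNGATG) and of the Y box (TGATTGG) in capitals. They lie at chr20:4515304-4515380 (plus strand, RT1-Da), chr20:4560228-4560304 (minus, RT1-Db1), chr20:4576952-4577028 (plus, RT1-Ba), chr20:4604165-4604241 (minus, RT1-Bb) and chr20:4712385-4712461 (minus, RT1-DMa), all upstream of the annotated start.
RT1-Da: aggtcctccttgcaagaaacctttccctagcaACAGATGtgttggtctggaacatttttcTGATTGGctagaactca
RT1-Db1: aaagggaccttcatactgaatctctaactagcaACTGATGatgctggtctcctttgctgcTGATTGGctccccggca
RT1-Ba: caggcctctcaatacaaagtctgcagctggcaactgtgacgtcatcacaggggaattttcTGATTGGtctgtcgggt
RT1-Bb: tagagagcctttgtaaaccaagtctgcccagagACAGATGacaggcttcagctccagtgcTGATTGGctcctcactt
RT1-DMa: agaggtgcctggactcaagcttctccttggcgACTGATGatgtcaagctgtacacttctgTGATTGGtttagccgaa
The motif letters were chosen after these promoters had been read, and each motif was searched on its own on both strands of the 300 bases around each start (250 before, 50 after), so matches of different motifs could overlap. A Y core stood in 9 of 9 class II promoters with a RefSeq entry and in 7.06% of 33469 rat promoters. An X core stood in 6 of 9 and in 10.2% of all promoters. An X core followed by a Y core within 40 bases on the gene's strand was found in 6 of 9 class II promoters and in 10 of all 33469 (0.0299%), the other 4 being Ehd4, G3bp2, Hsd17b7 and Tdo2. RT1-Ba held the Y core without a match to the X letters used. RT1-DMa holds both cores, as RT1-Da, RT1-Db1 and RT1-Bb do. A link between these motifs and the levels over the animals was not tested.

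Class I RT1 symbols fall into the classical RT1-A genes and the nonclassical genes of the C/E, N and M regions. Summed over all class I symbols, the level was 519, 455, 349, 360 and 281 CPM in untreated replicates 1 to 5 and 334, 347, 367, 366 and 359 CPM in RG2833 replicates 1 to 5. The RG2833 values lay close together inside the untreated range. The means were 393 ± 94.0 CPM and 355 ± 14.0 CPM (SD, n = 5 each), a log2 ratio of -0.15 that was -0.03 without untreated replicate 1. Of the 24 tested symbols 15 had a log2 fold change below 0 and 9 above. edgeR called none of them and DESeq2 called 1, RT1-T24-4.

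RT1-A1 and RT1-A2 are classical class I genes. RT1-A1 was measured at 72.2, 58.5, 38.0, 41.2 and 32.3 CPM in untreated and at 30.9, 32.7, 36.5, 37.7 and 32.2 CPM under RG2833. Untreated replicates 1 to 4 lay above the RG2833 range and replicate 5 within it. RT1-A1 had a log2 fold change of -0.51 ± 0.19 (SE; 95% interval -0.91 to -0.10; adjusted p = 0.119 by edgeR), -0.32 without untreated replicate 1 and -0.62 without untreated replicate 5, where it passed the threshold (adjusted p = 0.0447 by edgeR). RT1-A2 was measured at 82.4, 65.2, 50.4, 45.4 and 29.0 CPM in untreated and at 45.3, 52.5, 52.3, 46.3 and 42.5 CPM under RG2833. Its untreated values lay on both sides of the RG2833 range. The log2 fold change of RT1-A2 was -0.19 ± 0.21 (SE; 95% interval -0.64 to 0.27; adjusted p = 0.618 by edgeR) and was 0.01 without untreated replicate 1 and -0.0654 with the ribosomal RNA covariate.

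RT1-CE5 and RT1-CE16 belong to the C/E region and, with RT1-A2, took the most class I counts, on a scale not corrected for length. RT1-CE5 was measured at 69.1, 53.2, 41.8, 43.7 and 34.4 CPM in untreated and at 38.0, 44.3, 41.1, 46.1 and 46.6 CPM under RG2833. RT1-CE16 was measured at 73.6, 57.8, 54.1, 50.8 and 42.8 CPM in untreated and at 52.8, 57.3, 62.2, 67.7 and 55.1 CPM under RG2833. In both genes untreated replicate 1 was the highest animal and untreated replicate 5 the lowest. The log2 fold changes were -0.16 ± 0.15 for RT1-CE5 (SE; 95% interval -0.50 to 0.17; adjusted p = 0.547 by edgeR) and 0.08 ± 0.13 for RT1-CE16 (SE; 95% interval -0.19 to 0.35; adjusted p = 0.733 by edgeR). Leaving out untreated replicate 1 or 5 moved them to -0.00274 or -0.26 for RT1-CE5 and to 0.20 or -0.000143 for RT1-CE16. RT1-CE16 was at 0.05 without untreated replicate 4 and at 0.02 without RG2833 replicate 4.

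**Figure D4:**
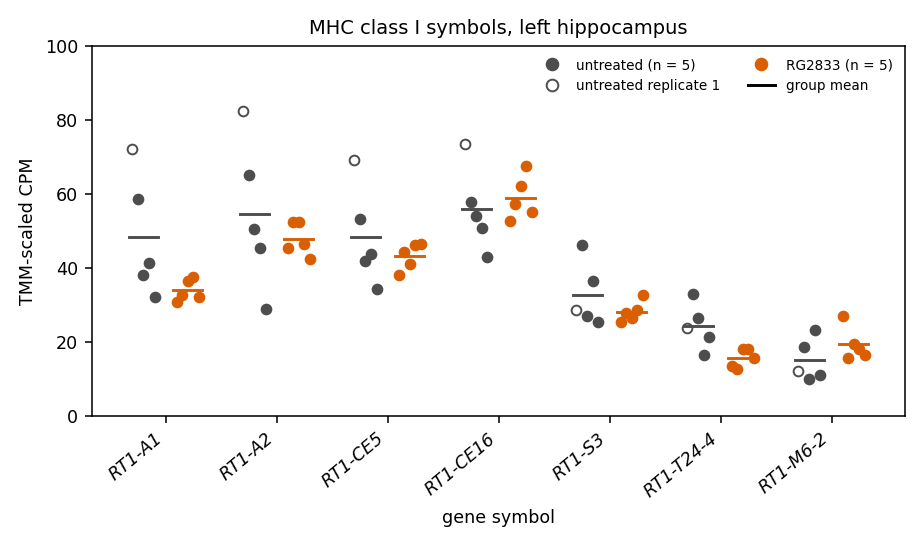
TMM-scaled CPM (vertical axis from 0) of 7 class I symbols in each animal, untreated in grey and RG2833 in orange with n = 5 each, and horizontal lines at the group means. For RT1-A1, RT1-A2, RT1-CE5 and RT1-CE16 the open circle of untreated replicate 1 is the highest value, whereas 4 of 5 untreated animals lie above the highest RG2833 animal for RT1-T24-4.

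RT1-T24-4, a nonclassical class I gene, had the smallest p of all members. It was measured at 23.9, 33.1, 26.6, 16.5 and 21.4 CPM in untreated and at 13.5, 12.8, 18.1, 18.2 and 15.8 CPM under RG2833. Only untreated replicate 4 lay inside the RG2833 range. Its log2 fold change was -0.63 ± 0.17 (SE; 95% interval -1.01 to -0.26; adjusted p = 0.0536 by edgeR), and -0.64 without untreated replicate 1 (adjusted p = 0.0905 by edgeR). It was called by DESeq2 (adjusted p = 0.0109) and by edgeR when only genes with a mean count of at least 50 were tested (adjusted p = 0.0480). Over the edgeR fits that each left out an animal, its adjusted p ran from 0.00871 to 0.122, under 0.05 without untreated replicate 4 or 5 alone. In the fit that held the ribosomal RNA share as a covariate, its log2 fold change was -0.29. The choice of RT1-T24-4 for full description followed its values. RT1-T24-3, below the filter, held 11, 15, 14, 12 and 6 counts in untreated and 7, 1, 6, 6 and 3 counts in RG2833 animals.

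No other class I symbol had an adjusted p under 0.1 by edgeR. RT1-S3, a nonclassical gene, had a log2 fold change of -0.22 ± 0.15 (SE; adjusted p = 0.399 by edgeR) that was -0.06 without untreated replicate 2. RT1-M6-2 of the M region was at 0.36 ± 0.23 (SE; adjusted p = 0.357 by edgeR), at 0.24 without untreated replicate 3, at 0.58 without untreated replicate 4 and at 0.21 without RG2833 replicate 1. RT1-M3-1, related to the mouse gene for a class I molecule that presents formylated peptides, was at 20.9 ± 2.62 CPM in untreated and 19.7 ± 1.35 CPM under RG2833 (SD, n = 5), with a log2 fold change of -0.08 and a 95% interval of -0.30 to 0.13. It was at -0.02 without untreated replicate 1, -0.14 without untreated replicate 4 and -0.05 without RG2833 replicate 2. RT1-CE14, from 4.87 to 15.7 CPM in untreated and from 3.31 to 7.53 CPM under RG2833, was at -0.70 ± 0.31 (SE; adjusted p = 0.182 by edgeR) and at -0.39 without untreated replicate 1. RT1-M6-1, at 2.05 ± 1.198 CPM in untreated and 1.19 ± 0.684 CPM under RG2833 (SD, n = 5), had the lowest class I log2 fold change, -0.73, with a 95% interval of -1.74 to 0.27, and was at -0.41 without untreated replicate 1.

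Many expected counts of class I symbols were not whole numbers (tolerance 0.005). RSEM gives such values where it divides reads among genes or isoforms. Of the class I symbols with a count, 32 of 34 (94.1%) held such values, against 2 of 9 class II symbols (22.2%), 3 of 6 accessory genes (50%; Tap1, Tap2 and Cd74) and 2411 of 14652 symbols in the whole table (16.5%). Single class I values are uncertain where reads could be placed in more than 1 copy, which was not tested. Fischer 344 rats differ in RT1 haplotype from the Brown Norway reference, and the effect of that on read placement was not tested.

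RT1-CE7 and RT1-CE11, both of the C/E region, were the class I symbols with the widest intervals. In untreated replicates 1 to 5 the expected counts of RT1-CE7 were 0, 39.52, 78.27, 153.60 and 78.29, and those of RT1-CE11 were 176.07, 143.79, 63.54, 0.01 and 29.44. In RG2833 replicates 1 to 5 they were 0, 79.60, 79.03, 161.50 and 78.27 for RT1-CE7 and 173.23, 170.13, 114.00, 15.59 and 120.02 for RT1-CE11. RT1-CE7 held 0% of the sum of both symbols in replicate 1 of each group. It held 99.99% in untreated replicate 4 and 91.2% in RG2833 replicate 4. In the remaining animals both symbols held a part, and RT1-CE7 held from 21.56% (untreated replicate 2) to 72.67% (untreated replicate 5). The sum itself varied less, from 11.4 to 20.1 CPM in untreated and from 16.5 to 22.3 CPM under RG2833. The log2 fold changes of the single symbols had wide 95% intervals, -1.45 to 1.90 for RT1-CE7 and -1.14 to 1.99 for RT1-CE11. Whether reads were divided between these symbols was not tested.

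**Figure D5:**
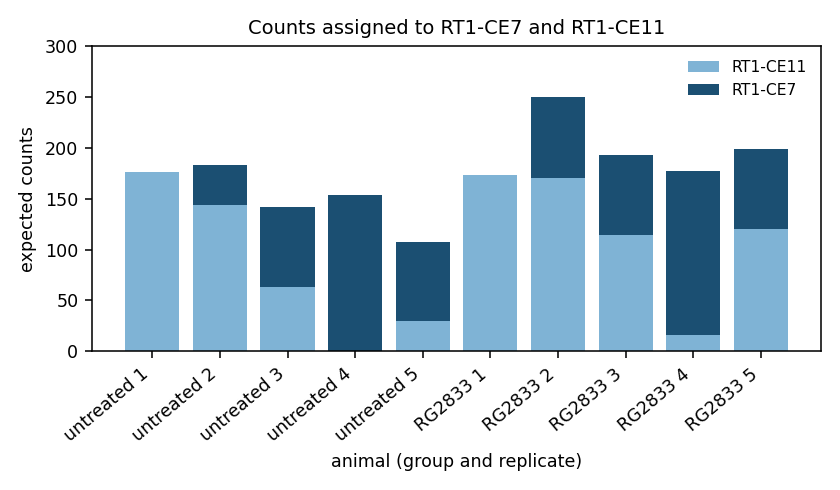
Expected counts (vertical axis) assigned to RT1-CE7 (dark) and RT1-CE11 (light), stacked for each of the 10 animals. RT1-CE7 takes none of the sum in replicate 1 of either group and 99.99% of it in untreated replicate 4, while the stacked totals run from 108 to 250 counts.

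The promoters of class I genes with many counts are given because they share a layout. The windows of 147 bases (RefSeq, GRCr8, 5′ to 3′ on the gene's strand) lie at chr20:4907072-4907218 (plus, RT1-A1), chr20:4872685-4872831 (plus, RT1-A2), chr20:3484122-3484268 (minus, RT1-CE5) and chr20:3265439-3265585 (minus, RT1-CE16). That of B2m, 168 bases before the start, lies at chr3:129549162-129549329 (plus). Capitals mark an NF-kB type core (GGGNATTCC), an interferon element core (TTTCNNTT or its reverse complement), an X core and, read on the other strand, a Y core.
RT1-A1: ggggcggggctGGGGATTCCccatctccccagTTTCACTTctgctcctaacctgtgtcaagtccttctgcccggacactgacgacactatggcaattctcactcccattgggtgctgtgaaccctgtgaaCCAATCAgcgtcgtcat
RT1-A2: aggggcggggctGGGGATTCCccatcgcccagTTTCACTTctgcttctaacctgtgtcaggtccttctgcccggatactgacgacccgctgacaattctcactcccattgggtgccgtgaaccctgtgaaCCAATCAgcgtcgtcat
RT1-CE5: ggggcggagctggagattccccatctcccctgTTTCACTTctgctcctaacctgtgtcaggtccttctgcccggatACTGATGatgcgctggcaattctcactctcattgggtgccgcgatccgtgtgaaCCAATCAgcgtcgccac
RT1-CE16: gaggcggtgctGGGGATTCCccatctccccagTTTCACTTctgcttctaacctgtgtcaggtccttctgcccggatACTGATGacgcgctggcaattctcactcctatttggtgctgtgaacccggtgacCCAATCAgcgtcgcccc
B2m: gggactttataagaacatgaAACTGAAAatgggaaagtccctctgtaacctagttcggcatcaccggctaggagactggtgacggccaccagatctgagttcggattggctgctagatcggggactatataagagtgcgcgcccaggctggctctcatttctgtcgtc
Without gaps, the windows of RT1-A1 and RT1-A2 had the same base at 85% of 147 positions, and the other pairs at 81 to 89.1%. The interferon element core stood in 22 of 31 class I promoters with a RefSeq entry (71%), in 5 of 5 accessory promoters and in 26.4% of all promoters. The NF-kB type core stood in 9 of 31 class I promoters (29%) and in 0.738% of all promoters. A Y core stood in 15 of 31 and an X core in 10 of 31 class I promoters, but none held X before Y within 40 bases with both on the gene's strand. Pairs outside those limits were not counted. RT1-CE5 and RT1-CE16, for instance, held an X core at -102 and -66 from the start and a Y core on the other strand at -48 and -12. These motifs, too, were chosen after the promoters had been read.

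None of the accessory genes of the class I pathway was called by edgeR or DESeq2. B2m, the light chain of class I molecules, was measured at 733, 758, 603, 522 and 436 CPM in untreated and at 495, 513, 499, 561 and 526 CPM under RG2833. Untreated replicates 1, 2 and 3 lay above the RG2833 range and replicate 5 below it. B2m had a log2 fold change of -0.23 ± 0.13 (SE; 95% interval -0.52 to 0.06; adjusted p = 0.300 by edgeR). It was -0.14 without untreated replicate 2 and -0.33 without untreated replicate 5 (adjusted p = 0.0778 by edgeR).

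Tap1 and Tap2 form the peptide transporter. Tap1 was measured at 13.4, 12.2, 9.64, 7.91 and 7.51 CPM in untreated and at 8.59, 7.94, 11.1, 10.3 and 9.31 CPM under RG2833, with a log2 fold change of -0.10 ± 0.17 (SE; 95% interval -0.47 to 0.28; adjusted p = 0.765 by edgeR). Tap2 was measured at 17.4, 23.2, 18.4, 18.4 and 16.4 CPM in untreated and at 20.4, 19.3, 20.8, 19.4 and 20.8 CPM under RG2833, with a log2 fold change of 0.10 ± 0.10 (SE; 95% interval -0.11 to 0.32; adjusted p = 0.563 by edgeR) that was 0.19 without untreated replicate 2, 0.06 without untreated replicate 5 and 0.31 with the ribosomal RNA covariate. For both transporter genes the RG2833 values lay inside the untreated range. Tapbp, which encodes tapasin, was measured at 21.2, 24.2, 22.7, 17.8 and 20.5 CPM in untreated and at 19.5, 19.4, 21.5, 21.5 and 21.6 CPM under RG2833, and its log2 fold change was -0.04 ± 0.10 (SE; 95% interval -0.25 to 0.17; adjusted p = 0.825 by edgeR). All RG2833 values of Tapbp also lay inside the untreated range.

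Of a list of 41 other genes of antigen processing, 39 were in the table and 37 were tested, with a median log2 fold change of -0.05. edgeR called 1 of the 37, where it called 5.08% of all genes, and DESeq2 called 2, Ctss and Psme1, where it called 10.9%. Ctss encodes cathepsin S, the protease that cuts the invariant chain in antigen-presenting cells. Its level was 395, 474, 347, 281 and 225 CPM in untreated and 197, 216, 199.6, 228 and 207 CPM under RG2833. Untreated replicates 1 to 4 lay above every RG2833 animal and replicate 5 lay within the RG2833 range. Ctss fell by 0.72 ± 0.16 on the log2 scale (SE; adjusted p = 0.0322 by edgeR), and it was not called when a replicate block was added. Over the 10 fits that each left out an animal it was called in 2, those without untreated replicate 4 or 5, and the largest edgeR adjusted p was 0.0849. In the fit that held the ribosomal RNA share as a covariate, its log2 fold change was -0.26 and it was not called. That fit called 2 of all 11791 tested genes. It cannot separate the share from RG2833, because the share did not overlap between the groups. Microglia express Ctss strongly, and the microglial marker sums given above were also highest in untreated replicates 1, 2 and 3; their part in the fall of Ctss was not tested.

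By role, edgeR called 0 of 14 tested genes of the class I side (immunoproteasome, proteasome activator, loading chaperones), 1 of 11 on the class II side (Ctss), 0 of 9 in the interferon gamma arm and 0 of 3 among costimulatory genes. At an unadjusted p under 0.05 the counts were 3, 5, 1 and 0, of which 6 in all were below 0 and 3 above. Together these are 24.3% of the 37, beside 24.5% of all genes. Psme1 and Psme2 encode the proteasome activator subunits that interferon gamma induces. Psme1 was at 58.8 ± 12.7 CPM in untreated and 42.7 ± 3.16 CPM under RG2833 (SD, n = 5), with a log2 fold change of -0.46 ± 0.13 (SE; adjusted p = 0.0546 by edgeR). DESeq2 called Psme1 (adjusted p = 0.0143), as did edgeR on genes with a mean count of at least 50 (adjusted p = 0.0476). Psme2 was at 39.6 ± 7.36 CPM and 31.1 ± 1.81 CPM (SD, n = 5), with a log2 fold change of -0.35 ± 0.12 (SE; adjusted p = 0.0929 by edgeR). Nfya, a subunit of the NF-Y factor that binds the Y box, was at 4.57 ± 0.667 CPM and 6.47 ± 0.995 CPM (SD, n = 5), with a log2 fold change of 0.50 ± 0.16 (SE; adjusted p = 0.0817 by edgeR). Lgmn, a lysosomal protease of antigen processing, was at 128 ± 11.98 CPM and 112 ± 5.02 CPM (SD, n = 5), with a log2 fold change of -0.20 ± 0.07 (SE; adjusted p = 0.117 by edgeR). In the fit with the ribosomal RNA covariate the log2 fold changes were -0.0683 for Psme1, -0.10 for Psme2, -0.0245 for Lgmn and 0.56 for Nfya. The untreated and RG2833 values of these 4 genes overlapped. Ifng, the gene for interferon gamma, had no count in any animal.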

How the data were processed

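RNA libraries of 10 animals were made with a stranded mRNA kit, per the labels' protocols. The authors deposited expected counts per gene symbol, made with Bowtie2 2.1.0 and RSEM 1.2.15 on build rn6 per the submitters' processing notes. They also deposited a normalized signal, used here for alternatives alone. The annotation is not given in the sources used here. Expected counts were rounded. Genes were filtered with filterByExpr by group, scaled with TMM and tested with edgeR 4.0.16 (quasi-likelihood, R 4.3.3) on the whole table, with Benjamini-Hochberg adjustment over 11791 genes and calls at an adjusted p under 0.05. CPM values are TMM-scaled and not divided by gene length, so levels of different genes are not compared. The SE was taken as |log2 fold change| over the square root of F. The script was tested on simulated data. Sums over genes received no test. Alternatives used DESeq2 1.42.0 and limma 3.58.1, other filters and scalings, a replicate block, a ribosomal RNA covariate and leaving out each animal. Precision is limited by counting at low levels (3 counts are 0.268 to 0.343 CPM) and by 5 animals per group. Fully described were the accessory genes, the 3 class I and 3 class II members of highest mean level and up to 5 genes of the processing list with the smallest p. RT1-A1, the other class II chains, RT1-T24-4, RT1-CE7, RT1-CE11 and further class I symbols were described after their values were seen. The members and all lists were chosen with earlier results of these data known.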

Additional observations from a re-analysis of the deposited data

Results flagged for a closer look

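A value was marked where, among the 5 animals of a group, its gap to the nearest other animal divided by the group's range passed Dixon's 95% limit of 0.71. Of 84 groups of 5 values, 7 (8.33%) held such an animal, where chance marks about 5%. Untreated replicate 1 was the animal in 4 of the 7. RT1-Ba was at 57.4 CPM there, and the other untreated animals ran from 10.3 to 20.2 CPM. RT1-Bb was at 42.2 CPM, against 7.93 to 16.9 CPM, and RT1-Db1 was at 40.8 CPM, against 5.18 to 15.5 CPM. The class I symbol RT1-CE3 was at 2.97 CPM in that animal, against 1.38 to 1.77 CPM. The remaining 3 came from other animals. RT1-A3 was at 8.16 CPM in RG2833 replicate 5, while the remaining RG2833 animals ran from 4.34 to 5.08 CPM. RT1-CE6 was at 1.58 CPM in untreated replicate 3, against 0.899 to 1.03 CPM. Psme1 was at 48.2 CPM in RG2833 replicate 4, beyond the 40.5 to 42.3 CPM of the other RG2833 animals.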

How the results depend on the processing

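Of the 35 tested members 0 were called, and 1 (RT1-T24-4) was called with a mean count of at least 50, with DESeq2 or at an adjusted p under 0.1. Of all genes 6.28% were called with that count filter and 10.9% with DESeq2. Over the fits without 1 animal the count ran from 0 to 4, from 0 to 3 for class I and from 0 to 1 for class II; accessory members gave 0 throughout. Without untreated replicate 4 the call was RT1-T24-4, and without untreated replicate 5 the calls were RT1-T24-4, RT1-A1, RT1-DMb and RT1-T24-3, which passed the filter there. Of all genes 13.1% were called without untreated replicate 4 and 7.61% without untreated replicate 5. The processing list gave 1 call, 2 with a mean count of at least 50 or DESeq2, 4 at an adjusted p under 0.1, 0 with the ribosomal RNA covariate and 0 to 4 without 1 animal. With the replicate block it gave 0 calls; same-numbered animals did not deviate together (mean correlation -0.07, 1 of 5 pairs over 0.1), so the numbers were not taken as pairs. Over all genes the block left 180 calls, the covariate 2, and leaving out an animal 98 (without RG2833 replicate 5) to 1556 (without untreated replicate 4), against 599. Under the ribosomal RNA covariate the log2 fold change changed sign for B2m (0.0127), Tapbp (0.12), RT1-A3 (-0.0810), RT1-CE15 (-0.0889), RT1-CE16 (-0.0209), RT1-CE7 (-1.12), RT1-S2 (-0.0503) and RT1-T24-2 (-0.11). Without 1 animal it crossed 0 for RT1-A2 (-0.34 to 0.00801), RT1-A3 (-0.11 to 0.15), RT1-CE10 (-0.28 to 0.0570), RT1-CE15 (-0.0243 to 0.25), RT1-CE16 (-0.000143 to 0.20), RT1-CE2 (-0.17 to 0.16), RT1-CE3 (-0.16 to 0.16), RT1-CE4 (-0.13 to 0.0647), RT1-CE7 (-0.23 to 0.70), RT1-S2 (-0.18 to 0.20), Tap1 (-0.19 to 0.0186) and Tapbp (-0.10 to 0.00937). With the covariate RT1-S3 was at -0.03, RT1-CE5 at -0.25 and RT1-M6-1 at -0.18, the last also at -0.44 on the deposited signal with a pseudocount of 1. The covariate put RT1-CE2 at -0.50, RT1-CE3 at -0.70 and RT1-CE11 at 1.35. Over the alternative settings that kept all animals, RT1-Da ran from -1.27 to -0.80, RT1-Db1 from -1.80 to -0.80 and RT1-Ba from -1.46 to -0.66. RT1-Bb ran from -1.21 to -0.56, Cd74 from -1.17 to -0.66 and RT1-Cl from -0.68 to -0.16. The ribosomal RNA share did not overlap between the groups, so the covariate fit cannot separate it from RG2833. The causes of these changes were not tested. Symbols with a lower mean count had no value under the filter of 50. The log2 ratio of summed class I (-0.15) ran from -0.25 (without untreated replicate 5) to -0.03 (without untreated replicate 1) over the sums without 1 animal, and was -0.00454 for medians over animals. That of summed class II (-0.44) ran from -0.58 to -0.12 for the same omissions, was -0.0450 for medians and -0.85 without RT1-DMa. Other scalings, the deposited signal and differences within replicate numbers gave -0.16 to -0.12 for class I and -0.45 to -0.33 for class II.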

Other observations

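The expected counts of RT1-CE7 lay near a few values over the 10 animals. They were 0 in replicate 1 of both groups, 39.52 in untreated replicate 2, between 78.27 and 79.60 in 5 animals, and 153.60 and 161.50 in replicate 4 of the untreated and RG2833 groups. These counts were noticed after the values were seen and no test was run on them.

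The 2 classical class I symbols RT1-A1 and RT1-A2 divided their sum unequally over the animals. RT1-A1 held 46.7, 47.3, 43.0, 47.6 and 52.7% of it in untreated replicates 1 to 5 and 40.6, 38.4, 41.1, 44.8 and 43.1% in RG2833 replicates 1 to 5. The ranges of the groups overlap, and the part of reads shared by the symbols was not tested.

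Of the 54 members, 52 were located in the RefSeq table of GRCr8. There 49 lie on chromosome 20, B2m on chromosome 3, Ciita on chromosome 10 and Cd74 on chromosome 18.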
